A study of Caenorhabditis elegans with 12 samples.

Results

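The WHT and HAF proteins are single-unit ABC transporters, membrane proteins whose chain holds a single transmembrane part and a single ATP-binding cassette. They must pair with an identical or a different partner to form a working pump. In Caenorhabditis elegans the wht genes are the relatives of the Drosophila white gene (the ABCG type), and the haf genes encode single-unit proteins of the ABCB type, whose relatives sit in lysosome-related organelles and mitochondria. Several worm ABC transporters are needed for a full response to RNA interference, and haf-6 is one known to act there in the germ line.

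The 8 genes described are wht-1, wht-2, wht-3, wht-7, haf-1, haf-2, haf-6 and haf-9, taken by gene symbol out of 16378 genes that the array's probes name. They were chosen by their measured mutant-over-wild-type ratios in the 3 mutants, so those ratios are given as a description without a test. Where a member is said to pass the fit's threshold, that is descriptive too. Each of the 8 has 1 probe. Genes needed values on 3 of the 4 arrays in each mutant to enter the fit, which held 12887 genes and 7 of the 8 members, all but wht-3. The families hold 9 further genes on the array, wht-4, wht-5, wht-6, wht-8, wht-9, haf-3, haf-4, haf-7 and haf-8, of which 8 entered the fit.

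RNA came from dissected adult germ lines of worms kept at 20 °C, and each of 12 two-colour arrays set 1 mutant sample against 1 wild-type sample. The 3 groups of 4 arrays were mes-2 mutants (strain SS0186, against unc-4(e120)), mes-4 mutants (strain SS0803, against N2) and mes-2; mes-4 double mutants (strain SS0965, against unc-4(e120)). The labels name no mes allele, so how much MES-2 or MES-4 function was lost is not given. MES-2 is the histone methyltransferase of the worm's Polycomb complex, and MES-4 is a histone methyltransferase whose mark covers genes expressed in the germ line. For wild type and the single mutants, adults with few embryos at most were dissected, whereas double mutant germ lines were collected for good proliferation and oocytes, so genotype and selection of the double mutant cannot be told apart. The mes-2 and double mutant comparisons share the strain unc-4(e120), while mes-4 does not.

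Values are log2 ratios of mutant over wild type. Neither base 2 nor this direction is stated, and both were assumed, the direction from the array titles and the low values of the mes-2 probe in mes-2 mutants. The mes-2 probe lay at -2.80 (SE 0.20) in mes-2 and -2.49 (SE 0.20) in the double mutant, whereas the mes-4 probe lay at 0.63 (SE 0.24) in mes-4 and -0.03 (SE 0.24) in the double mutant, so RNA at that probe does not check the mes-4 labels. An array ratio holds no level, so the presence of each transporter's RNA in wild-type germ lines and the tissue label itself cannot be read from these values, nor can fewer expressing cells be told from less RNA per cell. Arrays stood apart on an axis that held 47% of the residual variance of all genes. Its high end held replicates 1 and 4 of the double mutant together with replicate 3 of mes-4, and its low end held the other double mutant replicates, 2 and 3. These are called the high-end and low-end arrays. Several ratios of wht and haf genes are given with and without these arrays. Those of the other gene lists are given on all arrays only.

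**Figure D1:**
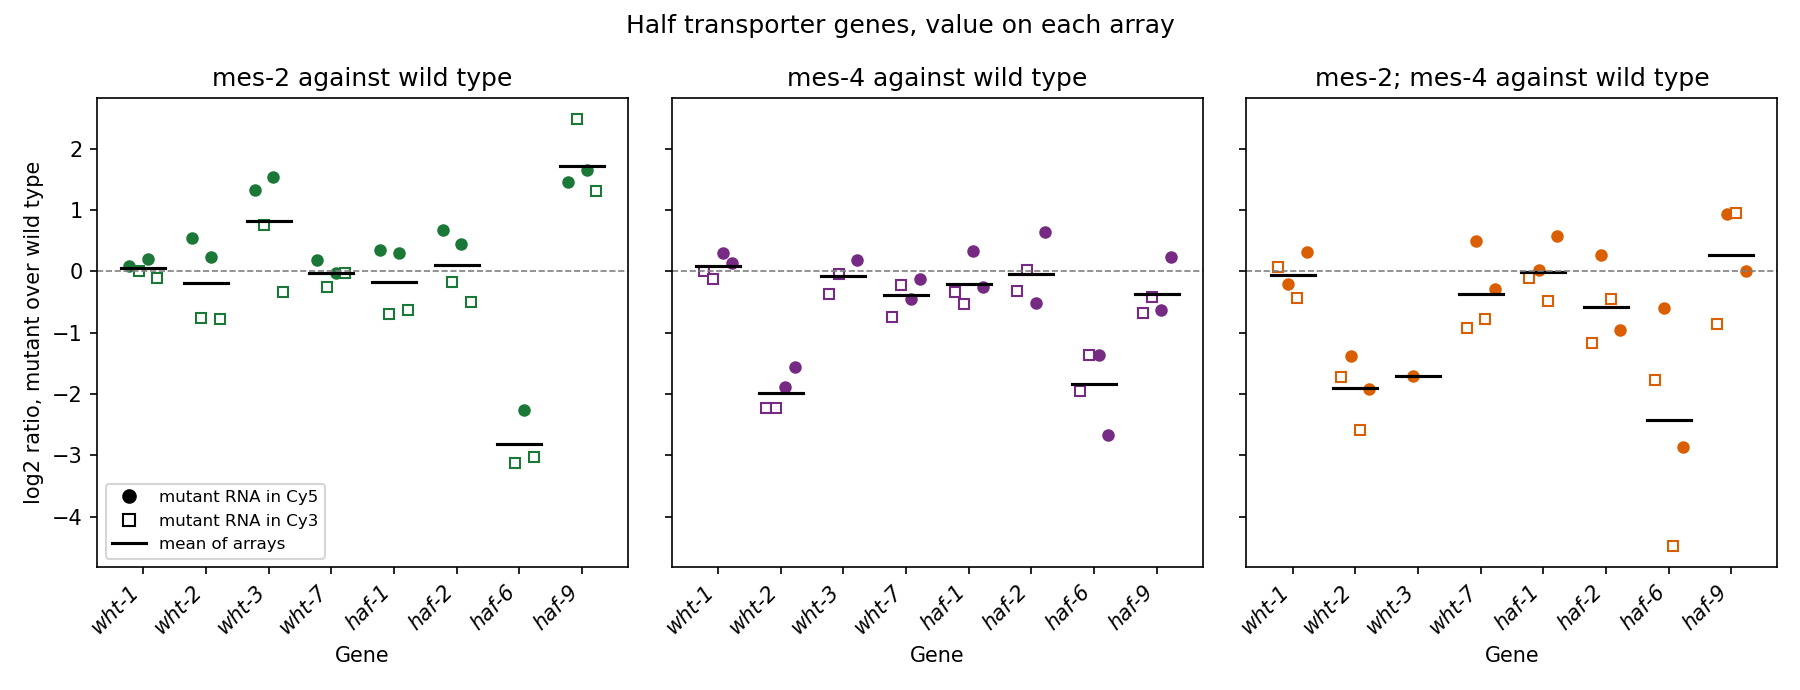
Log2 ratio of mutant over wild type on the y axis for each of the 8 genes on the x axis, 1 panel per mutant. Each point is 1 array, filled circles with mutant RNA in Cy5 and open squares with mutant RNA in Cy3, and black lines are means. The points of haf-6 lie below 0 in every panel, those of wht-2 in the mes-4 and double mutant panels, and those of haf-9 lie above 0 in mes-2.

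wht-2, a member of the white family, was low in both mutants that carry a mes-4 mutation. In mes-4 its log2 ratios were -2.23, -2.23, -1.89 and -1.56 for replicates 1 to 4. Those of the double mutant were -1.73, -1.38, -2.59 and -1.92. All 8 of these arrays lay below -1, and the groups of mes-4 and double mutant arrays overlapped. In mes-2 the values were 0.55, -0.76, 0.24 and -0.78, on either side of 0, and the highest of the other 8 arrays was below the lowest of these 4. As these ratios chose wht-2, that separation is descriptive, and the share of all genes with such a separation is not given. The fitted ratios were -1.98 (SE 0.16) in mes-4, -1.91 (SE 0.16) in the double mutant and -0.19 (SE 0.16) in mes-2, all with n = 4. On base 2 the mes-4 and double mutant ratios correspond to 25.4% and 26.7% of wild type. Among 12887 genes wht-2 held rank 5 from the lowest ratio in mes-4 and rank 13 in the double mutant.

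The mes-4 minus mes-2 difference of wht-2 was -1.79 (SE 0.22). The double mutant minus mes-4 difference was 0.07 (SE 0.22). Both compare arrays with different wild-type strains on the other channel. Double mutant minus mes-2, with the shared strain unc-4(e120), was -1.72 (SE 0.22). Under 25 other settings the wht-2 ratio stayed between -2.55 and -1.84 in mes-4 and between -2.11 and -1.66 in the double mutant.

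haf-6, which is known to be needed for RNA interference in the germ line, was low in all 3 mutants. Its log2 ratios in mes-2 were -3.13, -2.26 and -3.03 for replicates 2 to 4, with no value for replicate 1. In mes-4 they were -1.95, -1.37, -1.37 and -2.67, and in the double mutant -1.77, -0.59, -4.47 and -2.86. Every one of the 11 values lay below 0 and the 3 groups overlapped. The double mutant had the widest spread, 1.65 (SD, n = 4) against 0.62 (SD, n = 4) in mes-4 and 0.48 (SD, n = 3) in mes-2.

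Fitted ratios of haf-6 were -2.71 (SE 0.56) in mes-2, -1.84 (SE 0.48) in mes-4 and -2.42 (SE 0.48) in the double mutant, which on base 2 are 15.3%, 27.9% and 18.7% of wild type. From the lowest ratio haf-6 held rank 6, 9 and 7 of 12887 genes in mes-2, mes-4 and the double mutant. The widest of the 3 differences between mutants was 0.87 (SE 0.74), for mes-4 minus mes-2. Double mutant minus mes-2 was 0.29 (SE 0.74) and double mutant minus mes-4 was -0.58 (SE 0.68). The differences that involve mes-4 also span different wild-type strains. With every value below 0, the 21 other settings that gave a ratio could hardly turn its sign. It ran from -2.83 to -2.11 in mes-2, -2.26 to -1.41 in mes-4 and -3.01 to -1.76 in the double mutant.

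haf-9 was high in mes-2. HAF-9 is known to pair with HAF-4 on lysosome-related organelles of the intestine. Its log2 ratios in mes-2 were 1.45, 2.48, 1.66 and 1.31. In mes-4 they were -0.68, -0.41, -0.63 and 0.23, and in the double mutant -0.86, 0.94, 0.96 and 0.01. All 4 mes-2 arrays exceeded all 8 others, and the mes-4 and double mutant arrays overlapped. These ratios chose haf-9, so the separation is descriptive, and the share of all genes that separate in this way is not given. The fitted ratio in mes-2 was 1.73 (SE 0.29, n = 4), 3.31-fold on base 2 and rank 66 from the highest of 12887 genes. In mes-4 it was -0.37 (SE 0.29) and in the double mutant 0.26 (SE 0.29). Double mutant minus mes-2 was -1.46 (SE 0.42), with the same wild-type strain on the other channel of both. This difference is given on all arrays only.

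The double mutant value of haf-9 depended on the arrays that stood apart. It was 0.95 without the 3 high-end arrays and -0.43 without the 2 low-end arrays, and neither value passed the fit's threshold. In mes-2 the ratio ranged from 1.42 to 1.86 over 25 other settings.

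Among the wht genes without a large shift, wht-1 stayed close to 0 on every array. Its values ran from -0.11 to 0.21 in mes-2, -0.12 to 0.30 in mes-4 and -0.43 to 0.31 in the double mutant, with fitted ratios of 0.05, 0.08 and -0.07 (SE 0.11 each). wht-7 ran from -0.26 to 0.19 in mes-2 and lay below 0 on all 4 mes-4 arrays, from -0.74 to -0.12. wht-7 in the double mutant ran from -0.93 to 0.49. Its fitted ratios were -0.03, -0.38 and -0.38 (SE 0.16 each). The double mutant value of wht-7 passed the threshold in 2 of 25 other settings, at -0.61 both without double mutant replicate 2 and without the low-end arrays.

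wht-3 had values of 1.32, 0.76, 1.54 and -0.34 in mes-2, of -0.37, -0.04 and 0.18 on 3 arrays in mes-4, and of -1.71 on a single array, replicate 2, in the double mutant. Its means were 0.82 ± 0.84 (SD, n = 4) in mes-2 and -0.08 ± 0.28 (SD, n = 3) in mes-4. With 1 double mutant value it was not fitted, and nothing is said of its difference there.

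haf-1 encodes a mitochondrial transporter known for exporting peptides from the matrix in the mitochondrial stress response. Its fitted ratios were -0.17 in mes-2, -0.20 in mes-4 and -0.003 in the double mutant (SE 0.13 each), within a range of -0.70 to 0.57 over the 12 arrays. The values of haf-1 followed the dye more than the mutant. In mes-2 they averaged 0.33 with mutant RNA in Cy5 and -0.67 with mutant RNA in Cy3.

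haf-2 had fitted ratios of 0.11 in mes-2, -0.04 in mes-4 and -0.58 in the double mutant (SE 0.23 each). Its double mutant values were -1.17, 0.26, -0.45 and -0.96, with replicates 1 and 4 the lowest. Those replicates are the high-end arrays. Their mean was -1.07 and that of replicates 2 and 3 was -0.10, so the fitted ratio was -0.10 without the high-end arrays and -1.07 without the low-end arrays. It passed the threshold in 2 of 25 other settings, the latter and the fit with array weights. wht-1 had the opposite order, with means of 0.19 for replicates 1 and 4 and -0.32 for replicates 2 and 3, and passed the threshold in 1 of 25 other settings, at -0.32 without the high-end arrays. wht-2 had means of -1.83 and -1.99 on the same pairs of arrays, and haf-6 -2.32 and -2.53, so neither differed between the ends by more than the spread of its double mutant arrays.

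**Figure D2:**
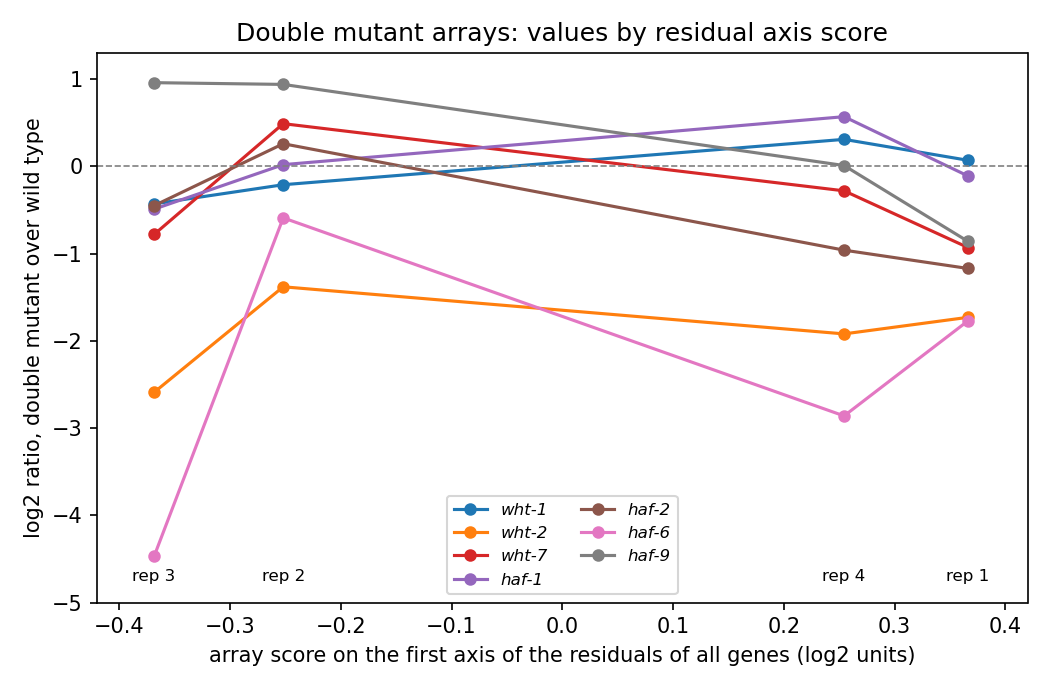
The x axis is each double mutant array's score on the first axis of the residuals of all genes, and the y axis is the log2 ratio of 7 of the genes on that array, 1 line per gene (wht-3 has a single value and is not drawn). The lines of haf-2 and haf-9 lie lower at the right, where replicates 4 and 1 are, while wht-2 and haf-6 stay below 0 on all 4 arrays.

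The fit called genes at a Benjamini-Hochberg adjusted p under 0.05 over all 12887 genes. In mes-2 it called 1 of 7 members higher (haf-9) and 1 lower (haf-6), where 3.94% of all genes were called higher and 1.3% lower. In mes-4 it called 0 of 7 members higher and 1 lower (wht-2), against 2.52% and 1.39% of all genes. In the double mutant it called 0 of 7 higher and 2 lower (wht-2 and haf-6), against 9.62% and 6.25%. As these ratios chose the members, the counts are descriptive, as are the settings in which a member passed the threshold. The same shares of all genes stand beside the counts of relatives and gene lists below. The median ratio of the 7 members was -0.03 in mes-2, -0.37 in mes-4 and -0.38 in the double mutant, and the median of all genes lay within 0.005 of 0 in each.

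haf-6 passed in 7 of 21 other settings in mes-4, among them the fit of the mes-4 arrays alone, where its SE was 0.24, and the fits without replicate 2 or replicate 3 of the double mutant, where the ratio stayed at -1.84. In mes-2 it did not pass with the replicate number as a block (-2.22, SE 0.47). In the double mutant it did not pass when the 4 double mutant arrays were fitted alone (SE 0.59) or when the 3 high-end arrays were left out (SE 0.74).

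The dye of the mutant RNA is a measure that did not choose the members. Its term passed the threshold for 2 of 7 members, wht-2 and haf-1, and for 32% of all genes. Both read higher with mutant RNA in Cy5, wht-2 by 0.73 (SE 0.18, limma adjusted p = 0.013) and haf-1 by 0.69 (SE 0.15, adjusted p = 0.0074). Each group held 2 arrays of each orientation. In mes-2, wht-2 averaged 0.40 on Cy5 arrays and -0.77 on Cy3 arrays. In mes-4 the corresponding means were -1.73 and -2.23, and in the double mutant -1.65 and -2.16, so wht-2 was low in both orientations there.

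Since the members were picked from these families by their ratios, the 8 tested relatives are what that choice left over. In mes-2 haf-4, the known partner of haf-9, rose by 0.43 (SE 0.10, n = 4, limma adjusted p = 0.039), with values of 0.21, 0.97, 0.18 and 0.34. It was the only 1 of the 8 called in mes-2, and it was called in 15 of 25 other settings, with a range of 0.31 to 0.54. Its adjusted p was 0.29 without the dye term and 0.18 with the mes-2 arrays fitted alone. The dye term of haf-4 was itself called (-0.47, SE 0.12, adjusted p = 0.014), as were those of haf-8 and wht-4. In mes-2 haf-4 averaged 0.195 on Cy5 arrays and 0.655 on Cy3 arrays. Leaving out mes-2 replicate 1, 2 or 3 gave 0.42, 0.31 and 0.43 (adjusted p = 0.14, 0.21 and 0.12). Leaving out mes-4 replicate 1 or 2 or double mutant replicate 2 or 4 left the ratio at 0.43 and the adjusted p between 0.053 and 0.064. In mes-4 haf-4 had -0.01 and in the double mutant -0.06 (SE 0.10 each). 

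In mes-4 limma called 0 of 8 relatives, and 2 had an unadjusted p under 0.05. The median of the 8 was 0.21 in mes-2, -0.06 in mes-4 and -0.49 in the double mutant. In the double mutant wht-6 fell by 0.91 on the log2 scale (SE 0.16, n = 4, limma adjusted p = 0.0027), with values of -1.40, -0.39, -1.02 and -0.84 that all lay below 0. wht-5 fell by 0.46 (SE 0.13, n = 4, adjusted p = 0.037), with values of -0.50, -0.17, -0.59 and -0.57. wht-6 was called in 24 of 25 other settings and wht-5 in 12. Leaving out double mutant replicate 1, 3 or 4 gave wht-5 ratios of -0.45, -0.41 and -0.41 (adjusted p = 0.096, 0.12 and 0.15). Leaving out mes-2 replicate 3 or mes-4 replicate 1, 2 or 4 left wht-5 at -0.46 with adjusted p between 0.051 and 0.053. Without the high-end arrays wht-5 was at -0.38 (adjusted p = 0.23) and wht-6 at -0.71 (adjusted p = 0.022). Without the low-end arrays they were at -0.54 (adjusted p = 0.066) and -1.12 (adjusted p = 0.0086), so wht-5 was called in neither. The remaining 6 tested relatives were not called in the double mutant, with fitted ratios from -0.90 for wht-8 (SE 0.34, adjusted p = 0.11) to 0.14 for wht-4.

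In mes-4 wht-6 had -0.54 and wht-5 -0.20, and in mes-2 they had 0.31 and 0.37, none of them called (adjusted p from 0.10 to 0.61). The double mutant minus mes-2 difference was -1.22 for wht-6 (SE 0.23, adjusted p = 0.01) and -0.83 for wht-5 (SE 0.19, adjusted p = 0.025), and these 2 of 8 relatives were called against 6.19% of all genes. Neither mes-4 minus mes-2 nor the double mutant minus mes-4 difference was called for any of the 8, where 1.96% and 1.78% of all genes were called. The smallest adjusted p among them was 0.1, for wht-6 in mes-4 minus mes-2.

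wht-9 (a pseudogene in the WBcel235 gene table) ran from -0.16 to 0.17 over the 12 arrays, and wht-4, haf-3 and haf-8 were called in none of the 3 comparisons. haf-3 in the double mutant was at -0.52 (SE 0.17, adjusted p = 0.064), at -0.91 without the low-end arrays and at -0.12 without the high-end arrays, and it was called in 4 of 25 other settings. haf-7 had 5 values in all, 3 of them in mes-4 from 0.22 to 0.91, and was not fitted.

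**Figure D3:**
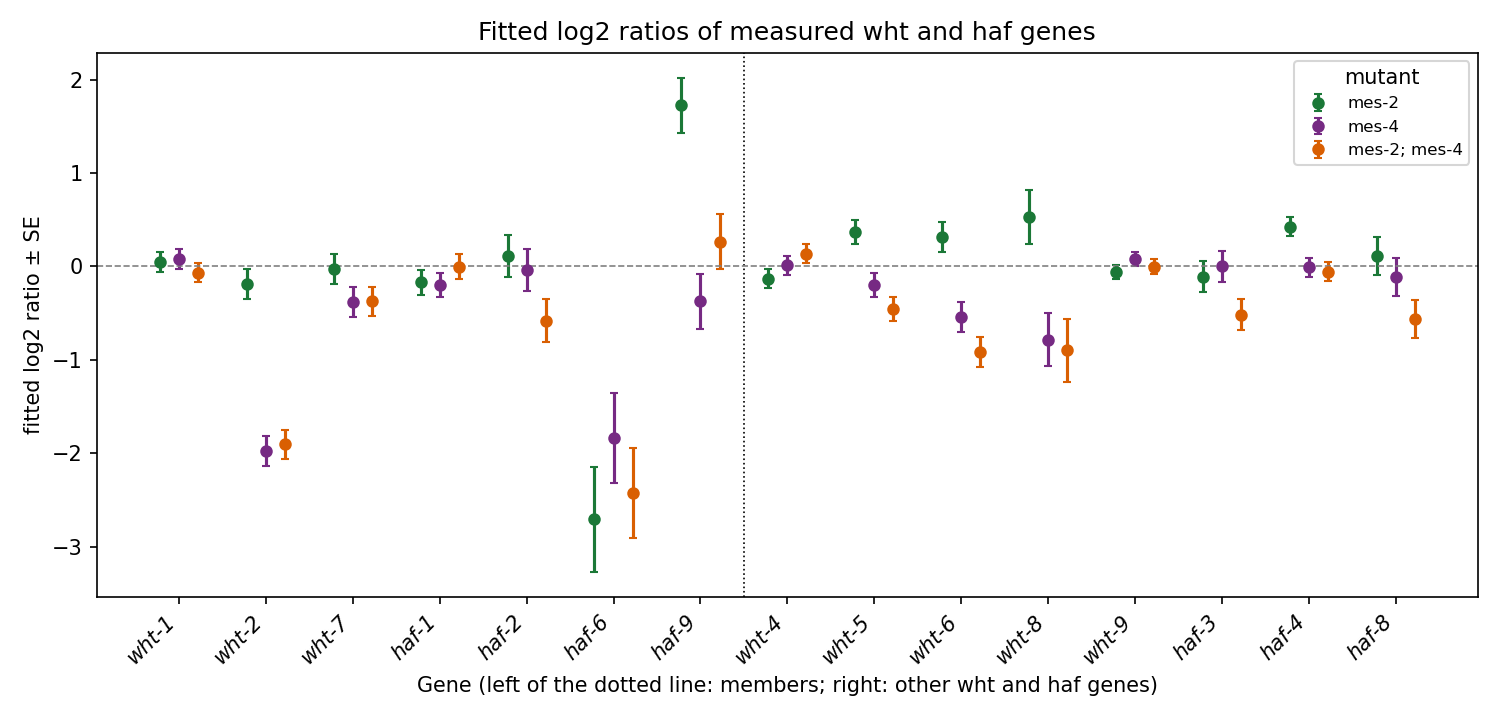
Fitted log2 ratio of mutant over wild type with its SE on the y axis for 15 genes of the wht and haf families on the x axis, coloured by mutant. Left of the dotted line are the 7 fitted members and right of it 8 relatives. Members reach from -2.71 for haf-6 to 1.73 for haf-9, and relatives from -0.91 for wht-6 to 0.53 for wht-8.

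**Figure D4:**
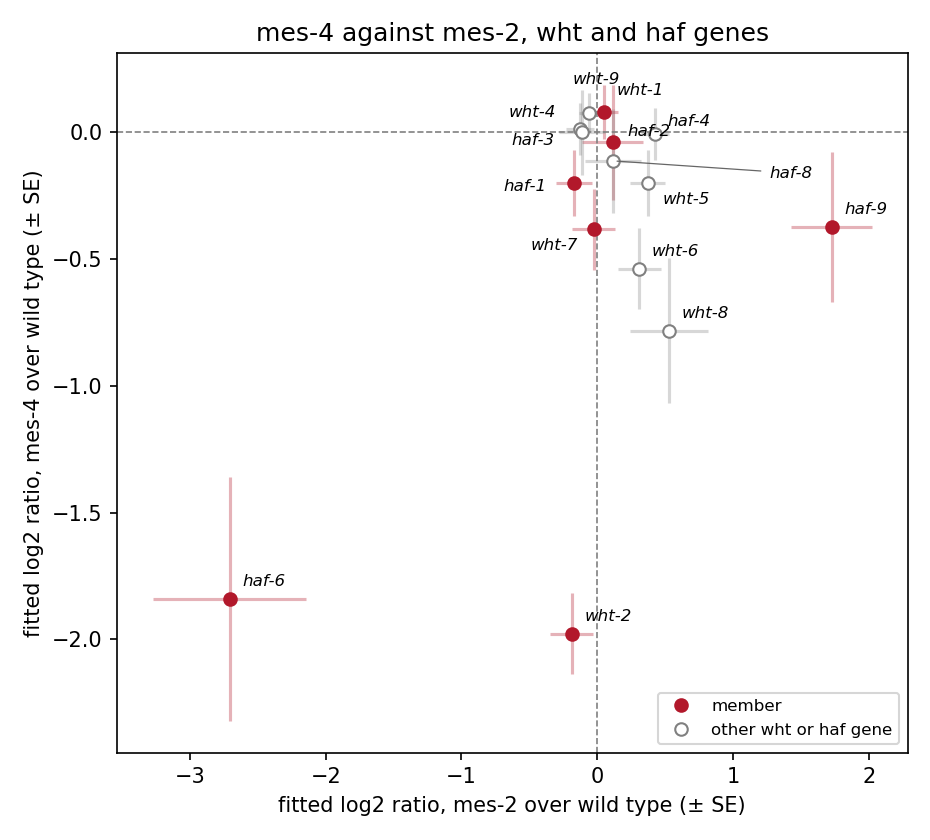
Fitted log2 ratio in mes-2 on the x axis against mes-4 on the y axis with SE bars, 1 point per gene, members filled and relatives open. haf-6 lies low on both axes, wht-2 on the mes-4 axis alone, and haf-9 lies to the right at 1.73 in mes-2.

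None of the 8 members and none of the 17 wht and haf genes on the array lies on the X chromosome. That chromosome holds 13.2% of the genes tested, and its share of all genes on the array is not given. wht-1, wht-3 and wht-7 lie on chromosome III, wht-2 and haf-1 on IV, haf-2 on II, and haf-6 and haf-9 on I. Of the full ABC transporters, whose single chain carries the whole pump, 14 of 27 genes on the array and 8 of 17 tested are X-linked.

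The nearest protein-coding neighbours in the WBcel235 gene table were called in no mutant. catp-8, a P-type ATPase gene next to wht-2, had 0.22 in mes-4 and -0.38 in the double mutant (SE 0.25 each), with adjusted p-values of 0.86 and 0.38. smg-2, a gene of nonsense-mediated decay next to haf-6, had -0.10 (SE 0.23) in mes-2, 0.002 (SE 0.23) in mes-4 and -0.53 (SE 0.23, adjusted p = 0.17) in the double mutant. On the other side of haf-6, Y48G8AL.7 had -0.01, -0.82 and -0.84 (SE 0.27 each, adjusted p = 0.99, 0.16 and 0.065). msrp-2, next to haf-9, had 0.09 (SE 0.35, adjusted p = 0.95) in mes-2. C10C6.13 and tres-1, the neighbours on the other side of wht-2 and haf-9, were not measured under those names.

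Likeness of pattern was measured as Pearson's r over the 12 arrays, each value taken relative to the mean of the arrays of its dye orientation, among 11412 genes with all values. These arrays share samples between genes, and r ignores the size of a shift. The genes most like wht-2 were R06C7.2 (r = 0.97), nlp-40, a neuropeptide gene (r = 0.95), and mop-25.3 (r = 0.95). Their sizes differed, with mes-4 ratios of -0.25, -0.23 and -0.80 and mes-2 ratios of 0.19, 1.53 and 0.07. Most like haf-9 were Y55F3BR.2 (r = 0.97), arrd-17, an arrestin domain gene (r = 0.95), and unc-31, a gene of dense-core vesicle exocytosis (r = 0.95), with mes-2 ratios of 2.39, 0.77 and 2.90. haf-6 lacks 1 value and was not compared.

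Of 5 tested single-unit ABC transporters of other types (4 peroxisomal pmp genes and abch-1), 0 were called in any mutant by limma and 0 had an unadjusted p under 0.05, with list medians of 0.03, -0.11 and -0.04. Of 17 tested full transporters (abcx-1 is listed with them), abcx-1 fell in mes-2 by 0.61 (SE 0.12, adjusted p = 0.018) and was the only gene of the list called there. In mes-4 the X-linked pgp-4 rose by 1.73 (SE 0.28, adjusted p = 0.0096), again the only gene called. The double mutant had 2 that rose and 2 that fell. mrp-8 rose by 2.21 (SE 0.34, adjusted p = 0.0013), mrp-7 fell by 1.39 (SE 0.21, adjusted p = 0.0011) and the X-linked pgp-5 rose by 0.92 (SE 0.25, adjusted p = 0.03). The fourth, abcx-1, fell in both mes-2 and the double mutant, with 3 values in the latter (-0.92, SE 0.14, adjusted p = 0.0018). The list medians were 0.01, 0.06 and 0.09.

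Of the 4 ABC proteins without a transmembrane part, whose relatives act in translation, abce-1 and abcf-1 fell in the double mutant. They fell by 0.88 (SE 0.20, adjusted p = 0.011) and 0.74 (SE 0.16, adjusted p = 0.0093). In the single mutants 0 were called and 0 had an unadjusted p under 0.05. The list's double mutant array medians were -1.165, -0.04, -0.405 and -0.72 for replicates 1 to 4. Replicates 1 and 4 are high-end arrays, and both falls are given on all arrays only.

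Of 26 RNA interference factors, the pathway of haf-6, 1 rose and 0 fell in mes-2. In mes-4 1 rose and 0 fell, and in the double mutant 2 rose and 2 fell. Of all genes 3.94%, 2.52% and 9.62% were called higher in mes-2, mes-4 and the double mutant. The shares called lower were 1.3%, 1.39% and 6.25%. The gene called in mes-2 was rrf-2, an RNA-dependent RNA polymerase gene, at 1.0 (SE 0.25, adjusted p = 0.046). In mes-4 it was the X-linked rsd-3 at 0.62 (SE 0.13, adjusted p = 0.021). Among the double mutant calls, sid-5, an X-linked gene of systemic RNA interference, rose by 2.14 (SE 0.17, adjusted p = 1.5e-05), while mut-14, an RNA helicase gene, fell by 0.76 (SE 0.13, adjusted p = 0.002) and rsd-3 rose by 0.74 (SE 0.13, adjusted p = 0.0024). The list medians were 0.06, 0.10 and -0.02, beside -2.71, -1.84 and -2.42 for haf-6.

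Gut granules and lysosome traffic are the setting of haf-4 and haf-9. Of 10 tested genes there, 1 rose in mes-2, 4 in mes-4 and 5 in the double mutant, with 0 lower in each. Of all genes 3.94%, 2.52% and 9.62% were called higher in that order. In mes-2 the gene called was glo-4, a gene of gut granule formation, at 0.66 (SE 0.17, adjusted p = 0.049). All 4 called in mes-4 and 3 of the 5 in the double mutant are X-linked. Of the 10 tested genes 5 are X-linked, against 13.2% of all genes tested. The largest were apm-3, an adaptor complex subunit gene, with 1.91 (SE 0.26) in mes-4 and 2.36 (SE 0.26) in the double mutant, vps-41 with 1.86 (SE 0.33) and 2.40 (SE 0.33), and lmp-1, a lysosomal membrane protein gene, with 1.29 (SE 0.11) and 2.75 (SE 0.11). haf-9 and haf-4, both on chromosome I, were not called in either of these mutants. Of 9 genes of the mitochondrial stress response, the setting of haf-1, 0 were called in any mutant, and 1 had an unadjusted p under 0.05, in the double mutant.

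The intestine is the tissue that HAF-4 and HAF-9 are known from and one that a dissection can carry along. Of 21 intestinal marker genes 17 were tested. In mes-2, 1 rose, the X-linked peptide transporter gene pept-1 at 0.95 (SE 0.12, n = 3, adjusted p = 0.0023), and the list's array medians were 0.12, 0.20, -0.47 and 0.28, next to haf-9 values of 1.45, 2.48, 1.66 and 1.31. The part of intestinal RNA in the haf-9 values was not tested. In mes-4 the array medians were -1.27, -1.15, -0.20 and -0.21 and the list's median fitted ratio was -0.87. The markers were not alike there. vit-1 to vit-6 ran from -1.16 (vit-1) to -0.60 (vit-4), whereas ges-1, elt-7, end-3 and fat-7 had -0.055, -0.08, 0.025 and -0.08. The remaining markers ran from -1.27 (elo-5) to -0.20 (cpr-1). limma called 0 of 17 markers there, and 11 had an unadjusted p under 0.05. The share of all genes with such an unadjusted p is not given. wht-2 was lowest, at -2.23, on replicates 1 and 2 and had -1.89 and -1.56 on replicates 3 and 4. Mutant RNA carried Cy3 on replicates 1 and 2 and Cy5 on replicates 3 and 4, so in mes-4 the order of the intestinal medians and the dye, whose term was called for wht-2, cannot be told apart. Double mutant medians ran from -0.09 to 0.41 with 0 called and 1 at an unadjusted p under 0.05, and wht-2 lay between -2.59 and -1.38 on those arrays. The part of intestinal RNA in the mes-4 values was not tested.

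Gonadal sheath markers had array medians between -0.12 and 0.11 over all 12 arrays, with 1 of 9 called in mes-4 (nmy-1, a non-muscle myosin gene, at 0.42, SE 0.08, adjusted p = 0.014). Of 20 germline markers 0 were called in mes-2 (1 with an unadjusted p under 0.05), gld-1 alone fell in mes-4, and 7 fell in the double mutant. Among those 7, rec-8, a meiotic cohesin gene, had -1.27 (SE 0.20, adjusted p = 0.0015), htp-3, a chromosome axis gene, -0.98 (SE 0.16, adjusted p = 0.002) and fbf-1 -0.95 (SE 0.18, adjusted p = 0.0042). The germline list's double mutant array medians were -0.68, -0.06, -0.38 and -0.39 for replicates 1 to 4, beside haf-2 values of -1.17, 0.26, -0.45 and -0.96 and wht-6 values of -1.40, -0.39, -1.02 and -0.84. The part of a changed germline composition in those values was not tested.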

How the data were processed

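The authors deposited 1 log ratio per probe for 22490 probes on 12 two-colour arrays, taken here as log2 of mutant over wild type. Per the labels' protocols, poly-A RNA was amplified, labelled with Cy3 or Cy5 and fragmented. Scanner, background correction, normalization, log base and direction are not given in the sources used here. Arrays have no read depth, and 17297 to 21879 probes had a value. Probes were named through the platform annotation (17461 with 1 gene, 0 with several, 5029 with none). The gene IDs of 17371 probes were matched to the WBcel235 gene table, which gave chromosomes and neighbours. Probes of a gene were averaged.

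limma 3.58.1 in R 4.3.3 fitted the 12887 genes that passed the filter of 3 measured arrays per group, with 1 coefficient per group and a dye term, tested against 0, two-sided and Benjamini-Hochberg adjusted over all genes. Differences between mutants were refitted as coefficients. Errors are limma SE unless SD is named. The fit was tested on simulated data. Named genes were the members, all other wht and haf genes, mes-2 and mes-4, up to 3 called genes of each list with the largest ratios per comparison, the 3 nearest patterns and adjacent genes. Neighbours are given for wht-2, haf-6 and haf-9, the members past 1 on the log2 scale, and nearest patterns for wht-2 and haf-9. abcx-1 in the double mutant was named beyond this rule, after its values were seen, to complete its count. Intestinal markers in mes-4 were also named beyond it, after their values were seen, to give the spread of that list. Members and lists were chosen with earlier results of these data known. Same-numbered arrays of different groups had residual correlations from -0.47 to 0.54, with 4 of 12 over 0.1, so the replicate numbers were not taken as pairs. The labels call the arrays biological replicates and do not say how the germ lines were pooled. For each member 25 other settings were tried, and leaving out the high-end or low-end arrays was added after seeing the data.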

Additional observations from a re-analysis of the deposited data

Results flagged for a closer look

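wht-5 lay above 0 on all 4 mes-2 arrays and below 0 on all 4 arrays of mes-4 and of the double mutant. Its mes-4 minus mes-2 difference of -0.57 (limma adjusted p = 0.2) did not pass the threshold, and its double mutant minus mes-2 difference of -0.83 (adjusted p = 0.025) did. The double mutant minus mes-2 difference of wht-6, -1.22 (adjusted p = 0.01), also passed. The mes-2 and double mutant arrays share the wild-type strain unc-4(e120), while the mes-4 arrays were set against N2. Among 44 sets of 4 arrays of wht and haf genes, 0 had an array whose gap to the rest, over the set's range, passed Dixon's critical value, where chance gives about 1 in 20 sets.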

How the results depend on the processing

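Members with a log2 ratio past 1 kept its sign under every setting that gave one (25 for wht-2 and haf-9, 21 for haf-6). In the double mutant the signs of wht-1, haf-1 and haf-9 turned in 3 or 4 of 25 settings, none of them a called value, and haf-2 turned in 3 in mes-4 and wht-7 in 1 in mes-2.

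Calls over all genes were 676 in mes-2, 504 in mes-4 and 2046 in the double mutant. In that order they were 402, 283 and 1301 without the dye term, 1054, 2160 and 3238 with array weights, and 92, 44 and 355 when tested against 1.5-fold. In mes-4 they were 851 after scaling and 861 after quantile normalization, and in the double mutant 173 when its arrays were fitted alone. Without the high-end arrays they were 1161 in mes-2 and 1518 in mes-4, and without the low-end arrays 886 in mes-4. Leaving out 1 array at a time gave 352 to 794, 218 to 668 and 1294 to 2152. The cause of these moves was not tested.

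Members called in mes-2 (2) came to 1 with values on all 12 arrays required, which drops haf-6, and to 1 to 2 without 1 array. In mes-4 (1) they came to 2 in the fit alone, scaled, quantile-normalized, weighted or without the low-end arrays, and to 1 to 2 without 1 array. In the double mutant (2) they came to 1 in the fit alone or with all 12 values, to 4 without the low-end arrays, and to 1 to 3 without 1 array, where leaving out mes-2 replicate 2, 3 or 4 drops haf-6 from the fit. Relatives called came in mes-2 (1) to 0 without the dye term or in the fit alone, in mes-4 (0) to 1 in the fit alone or weighted, and in the double mutant (2) to 1 without the dye term, scaled, quantile-normalized or without the high-end arrays, and 0 in the fit alone. Without 1 array they were 0 to 1 in mes-2 and 1 to 3 in the double mutant, and array weights gave 3 there.

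With the replicate number as a replicate block, 323 genes were called in mes-4, members called in mes-2 came to 1 (haf-6 at -2.22 not called) and relatives called in mes-2 to 0. The replicate numbers share only a number. The number of arrays, 4 per mutant, limits the precision.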
